A study of Mus musculus with 7 samples.

Results

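The liver RNA compared here came from 2 pools collected 24 h apart at the same clock hour, ZT02 and ZT26, where ZT counts the hours after lights on. They are 2 of the 7 arrays of a series that followed the mouse liver every 4 h over a day, and the only pair taken at 1 clock hour. Probe sets were kept where the annotation gives 1 gene symbol and the mean over the 7 arrays exceeded 85 units on the natural scale, which left 12076 of 35556 probe sets and 10966 genes, called measured below. The mice were C57/BL6 males, 9 to 11 weeks old when their housing began, and a pool combined 500 ng of RNA per liver from 5 animals. The mice lived under 12 h of light and 12 h of dark, ate freely for 2 weeks and then had food only from ZT12 to ZT24 for 7 days, and the livers were perfused with PBS. The 2 pools therefore share strain, sex, light cycle, feeding schedule and hour of the day, and differ in the mice and in the date by 1 day. There was 1 array per time point, so each difference below is a description of 2 pools with no replicate check, and no p-value was computed for it. A difference is ZT26 minus ZT02 in log2, a level is in units on the natural scale of the deposited signal, and no level is compared between genes.

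The circadian clock is a loop in which the activators BMAL1 (Arntl) and CLOCK drive the Per, Cry and Rev-erb (Nr1d1, Nr1d2) repressors, and in the liver it works together with feeding time to set daily rhythms of metabolism. Other liver programs also respond to the state of the animal, whether or not they follow the hour: interferon-stimulated genes answer to antiviral signals, acute phase genes to inflammatory cytokines, PPARα targets to fatty acids, and immediate early genes to handling, hormones and other short stimuli. A pair of pools from the same hour shows how far each of these programs lay apart when the clock hour was held fixed.

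Most mRNAs were at nearly the same level in the 2 pools. The median absolute difference was 0.0903, or 1.06-fold, and 89.7% of probe sets lay within 1.2-fold. The 95th percentile was 1.26-fold and the 99th was 1.44-fold. Of the 12076 probe sets, 43 were 1.5-fold or more higher at ZT26 and 37 were 1.5-fold or more lower, together 80 (0.662%), and 3 and 11 of them were 2-fold or more apart. Counted by gene, with the probe set of the highest mean, 43 genes were higher (0.392%) and 35 lower (0.319%). The root mean square difference was 0.172, which would correspond to a standard deviation of 0.122 per pool, or 1.09-fold, if both pools carried the same error. It includes the array, the pooling and the difference between 2 sets of 5 mice, and these cannot be told apart.

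**Figure D1:**
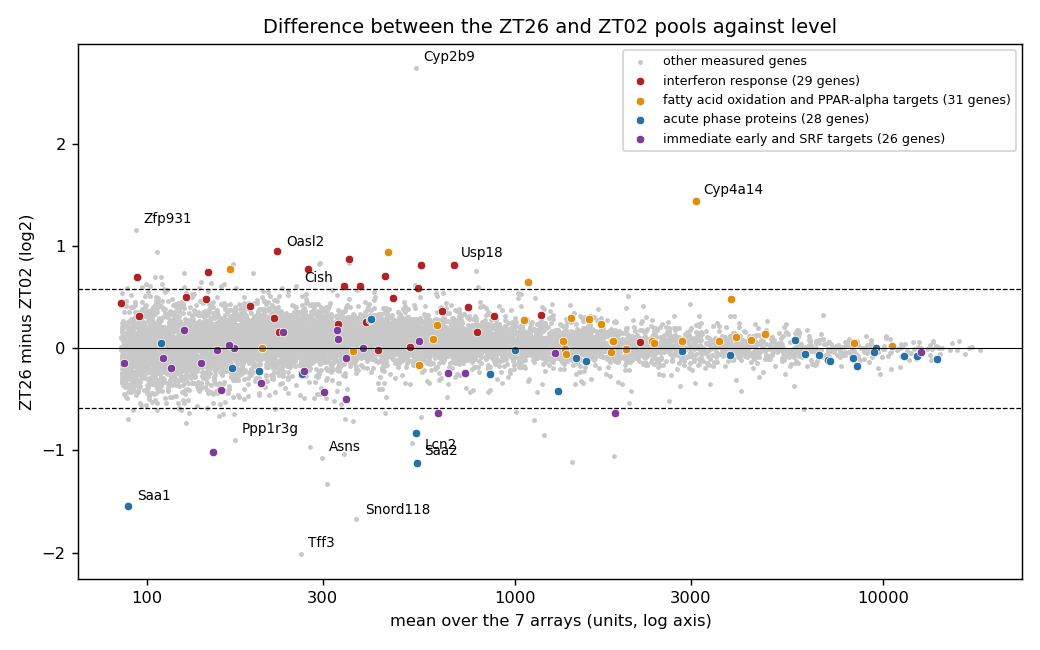
Each point is 1 gene, with its mean over the 7 arrays on a log axis in units and its difference ZT26 minus ZT02 in log2. Dashed lines mark 1.5-fold, and coloured points are members of 4 gene lists. Most points lie between the dashed lines, the genes farthest out are Cyp2b9 and Cyp4a14 above and Tff3 and Snord118 below, and the 11 interferon response genes past the upper line stand opposite the 3 acute phase genes below the lower line.

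The pair was set beside the other 20 pairs of arrays, which share arrays with it and with each other and are therefore a description. No other pair had fewer probe sets 1.5-fold apart: the neighbours were ZT02 and ZT22 with 99, ZT22 and ZT26 with 106, and ZT18 and ZT22 with 125. Pairs 12 clock hours apart had between 464 and 810. By root mean square 2 pairs lay below it, ZT18 and ZT22 (0.169) and ZT22 and ZT26 (0.170), and ZT02 and ZT22 (0.173) lay just above. By the median absolute difference it was rank 6 from the lowest, so that large differences were fewest in this pair while small ones were not. With quantile normalization of the 7 arrays, or with the intensity trend of each array removed, the pair had the lowest root mean square (0.162 and 0.163), and with median centring it was rank 4 (0.172), a comparison chosen after seeing the data.

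**Figure D2:**
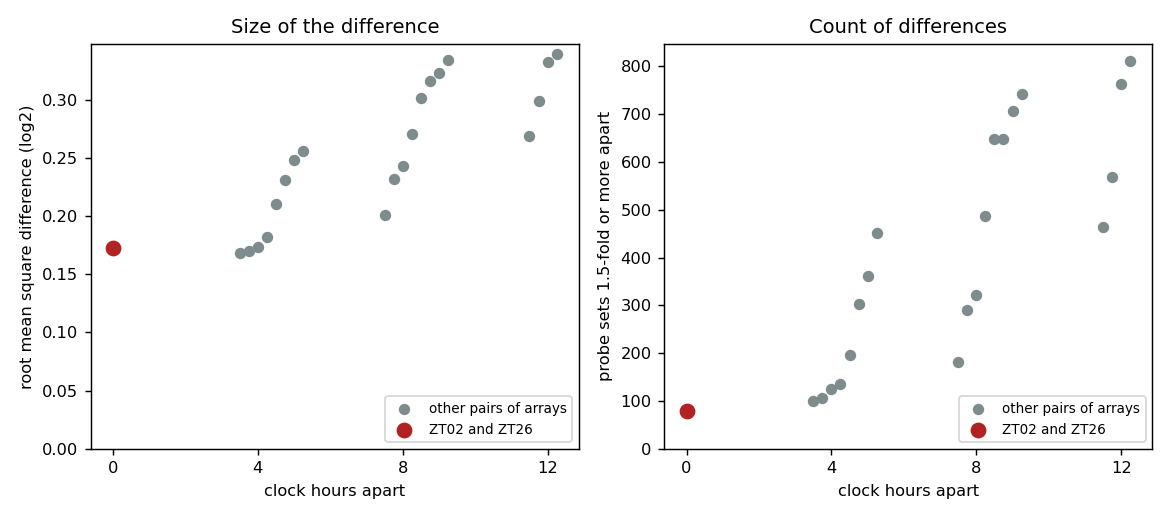
The left panel shows the root mean square difference in log2 and the right panel the number of probe sets 1.5-fold or more apart for the 21 pairs of arrays, against the clock hours between them (points are spread sideways within a group). The red point is ZT02 and ZT26, with 0.172 and 80; the other pairs rise to 0.340 and 810.

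Small differences leaned one way. The median difference was 0.04 and 63.2% of probe sets were above 0. The lean depended on the level: the median was 0 for the 3083 probe sets from 85 to 170 units, 0.08 for the 2660 from 340 to 680 units, and 0.01 for the 1641 above 1360 units. The shares above 0 in these classes, in the same order, were 46.35%, 74.96% and 55.45%. A share over all genes that is set beside a list below is not matched for level. The spread shrank with the level, from a root mean square of 0.199 in the lowest class to 0.124 in the highest. Over all genes, 773 were 1.2-fold or more higher at ZT26 (7.05%) and 372 lower (3.39%), and ZT26 was the highest of the 7 arrays for 19.3% of genes. Exactly equal values occurred in 679 probe sets (5.62%). In 5797 probe sets at least 1 value recurred among the 7 arrays, so an equal pair is not a measure of how little a gene varied.

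Interferon-stimulated genes were the group farthest above 0. Of the 39 genes listed, 29 were measured, and 11 were 1.5-fold or more higher at ZT26 against 0.392% of all genes, with 0 lower. A further 11 were between 1.2-fold and 1.5-fold higher, which made 22 of 29. The median of the list was 0.44 beside 0.04 over all genes, and 28 of 29 were above 0 (63.5% of all genes), with Irf1 at -0.013 the exception. ZT26 was the highest of the 7 arrays for 25 of the 29 genes (19.3% of all), so that the ZT26 pool stood above the rest in most of them. The list was not steady on the arrays between. Its median range over ZT06 to ZT22 was 0.71, beside 0.25 over all genes, and its mean was lowest at ZT14.

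Oasl2, an antiviral oligoadenylate synthetase-like protein, was at 209.6 units at ZT02 and 405 at ZT26 (1.93-fold, 0.95), with 144 to 236 on the 5 arrays between. Ifit1, which binds foreign RNA and blocks its translation, was at 362 and 666 units (0.88), and between 158 and 419.5 otherwise. Usp18, which removes the ubiquitin-like ISG15 and dampens interferon receptor signalling, was at 666 and 1175 units (0.82; 328 to 868 otherwise). In each of these 3 genes ZT26 alone stood above the other 6 arrays, and ZT02 lay inside the range of the remaining 5. Irf7, the transcription factor that amplifies type I interferon, was at 470.4 units at ZT02 and 827 at ZT26 (0.81), with 434 to 608 between. Rsad2, the antiviral enzyme viperin, was at 310.0 and 532 units (0.78) and had its lowest value, 81.7 units, at ZT14. The other members past 1.5-fold were Xaf1, Rtp4, Oas1b, Gbp7, Ifit3 and Irf9, named here after their values were seen. Their differences ran from 0.59 in Irf9, a subunit of the interferon-activated ISGF3 complex, to 0.75 in Xaf1. The Ifit, Oas and Gbp families hold close copies, whose probes may share signal.

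The 15 genes farthest above 0 also held genes outside the list. Ddx60, a helicase that assists RNA sensing, was at 97.8 units at ZT02 and 188 at ZT26 (0.95). Dhx58, the RNA sensor LGP2, was at 274 and 489.5 units (0.84), and Trim30a, a ubiquitin ligase of the tripartite motif family, at 334 and 597 (0.84). H2-T24, a nonclassical MHC class I gene, was at 143 units at ZT02, between 149 and 179.5 from ZT06 to ZT22, and at 254 at ZT26 (0.83). All 4 were highest of the 7 arrays at ZT26.

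Promoters of some of the genes named so far are shown because the interferon-stimulated response element (ISRE), the DNA motif bound by the ISGF3 complex and by interferon regulatory factors, is among the best known regulatory sequences of this program. Its letters, GAAA followed after any 2 bases by another GAAA, were searched on both strands in RefSeq promoters (GRCm38.p6), which run from 250 bases before to 50 after each gene's start. Of the 29 measured list members 22 had a promoter entry, and 11 of these 22 held the motif, beside 3.99% of all 27025 genes with a promoter and 3.53% of the 8781 measured ones. Of the 29 genes with a promoter that were 1.5-fold or more higher at ZT26, 10 held it, and of the 20 lower ones 2. The bases before the start of 4 genes named above are printed 5′ to 3′ on the gene's strand, with the motif in capitals; TTTC runs are the motif read from the opposite strand.
Ifit1: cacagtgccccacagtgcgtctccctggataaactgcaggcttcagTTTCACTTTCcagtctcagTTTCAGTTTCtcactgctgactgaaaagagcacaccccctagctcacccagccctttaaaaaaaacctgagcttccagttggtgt
Rsad2: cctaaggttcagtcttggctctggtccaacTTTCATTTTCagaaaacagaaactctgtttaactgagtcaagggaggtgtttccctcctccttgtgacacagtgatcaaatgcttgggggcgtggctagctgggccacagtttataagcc
Trim30a: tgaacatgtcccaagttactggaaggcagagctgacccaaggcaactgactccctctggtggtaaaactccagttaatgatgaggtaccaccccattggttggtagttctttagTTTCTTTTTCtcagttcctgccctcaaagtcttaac
Ddx60: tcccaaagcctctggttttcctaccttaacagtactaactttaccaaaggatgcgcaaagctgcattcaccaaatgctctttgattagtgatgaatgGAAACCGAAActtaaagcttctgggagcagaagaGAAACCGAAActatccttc
These are chr19:34640739-34640888 (plus strand), chr12:26456453-26456602 (minus), chr7:104465194-104465343 (minus) and chr8:61927937-61928086 (plus). Ifit1 and Ddx60 held 2 copies each in the stretch shown and Rsad2 and Trim30a held 1. Trim30a has a further RefSeq start whose copy lies outside the 150 bases before it. A match describes letters in a window and not a bound site.

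Macrophages and other non-parenchymal cells also carry interferon responses. Most markers of Kupffer cells and sinusoidal endothelium were also above 0, by less, while those of stellate cells and fibroblasts were near the share of all genes. Of 15 measured markers of Kupffer cells, the resident macrophages of the liver, 14 were above 0, 4 were 1.2-fold or more higher and 0 reached 1.5-fold, where 63.5% of all genes were above 0 and 7.05% were 1.2-fold or more higher. Their median was 0.20, led by Fcgr1, a receptor for antibodies, at 102 and 135 units (0.41), and Cd68, a lysosomal marker, at 348 and 425 (0.29). The summed level of the 15 was 9226 units at ZT02 and 10390 at ZT26, and 6682 to 10140 on the 5 arrays between, so that ZT26 was the highest. The defining markers Clec4f and Vsig4 were present at every time, Clec4f at 890.6 and 1021 units. All 13 markers of sinusoidal endothelium were above 0 with a median of 0.18, summed to 9726 and 11050 units (9636 to 12210 otherwise), led by Oit3 at 577 and 738 units and Gpr182 at 591 and 718. All 6 measured genes of MHC class II presentation were above 0 (median 0.19; 3750 and 4279 units summed, 2142 to 4321 otherwise), with H2-DMa at 0.41 and H2-Ab1 at 0.34. Of 13 measured markers of stellate cells and fibroblasts 8 were above 0 and 4 below, with a median of 0.08 beside 0.04 over all genes. The 8 hepatocyte markers summed to 106700 and 105900 units with a median of 0.02. With quantile normalization the medians were 0.15 for Kupffer cells, 0.13 for endothelium and 0.15 for MHC class II, beside 0.00 over all genes. In bulk RNA, fewer cells of a type and less RNA per cell cannot be told apart, and the part of these cells in the interferon difference was not tested.

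**Figure D3:**
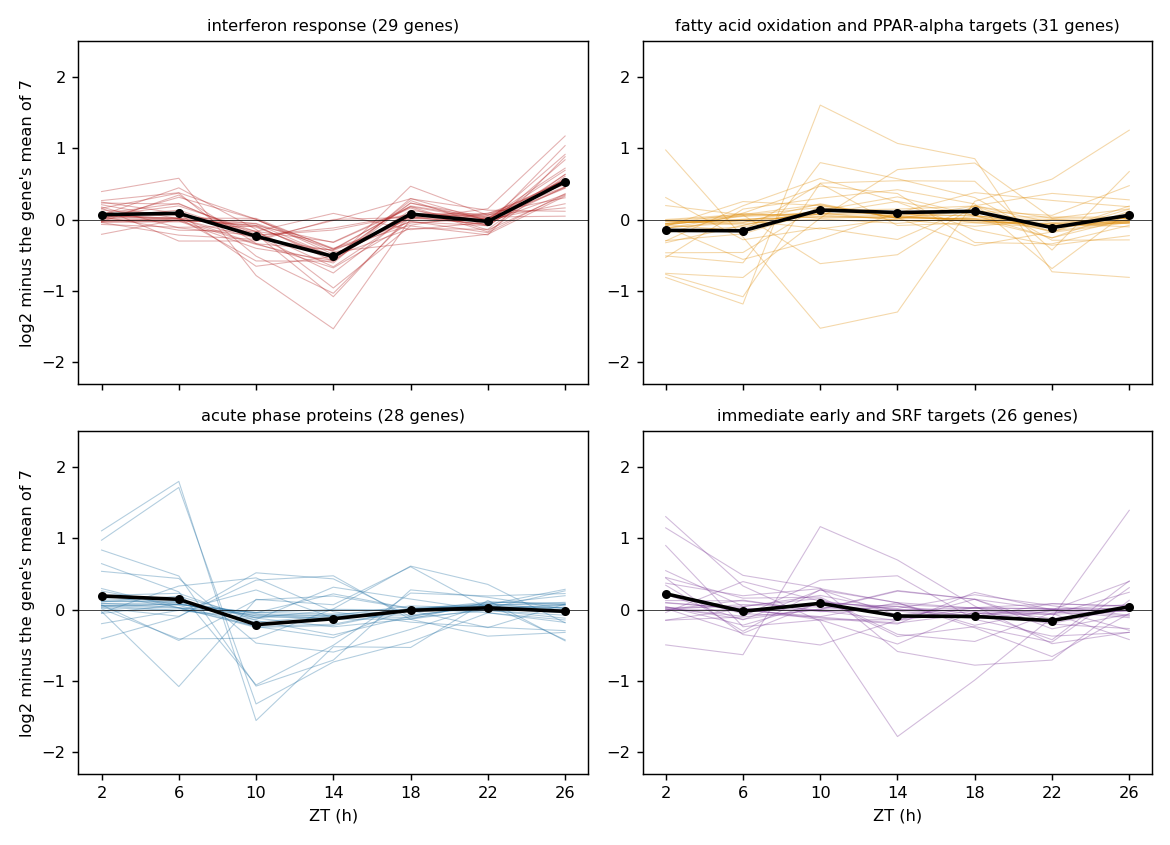
Thin lines are single genes and the black line is the mean of the list, as log2 minus each gene's own mean of the 7 arrays, against ZT in hours; ZT02 and ZT26 are the same clock hour. The mean of the interferon response list was 0.46 higher at ZT26 than at ZT02, that of the PPARα list 0.21 higher, and those of the acute phase and immediate early lists differed by -0.22 and -0.18.

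PPARα targets and genes of fatty acid oxidation held 4 genes past 1.5-fold, and most other members were above 0 by less. Of 31 measured genes 4 were 1.5-fold or more higher at ZT26 (0.392% of all genes) and 0 lower. In all 9 were 1.2-fold or more higher (7.05% of all genes) and 25 were above 0 (63.5% of all genes). The median was 0.07 beside 0.04 over all genes, and the upper quartile was 0.28. Cyp4a14, a fatty acid omega-hydroxylase, was at 1650 units at ZT02 and 4481 at ZT26 (2.72-fold, 1.44). Acot2 and Acot1, thioesterases that release fatty acids from coenzyme A in the mitochondrion and the cytosol, were at 319 and 613 units (0.94) and at 92.5 and 158 units (0.77). Vnn1, which recycles pantothenate, was at 727 and 1143 units (0.65). The ranges over ZT06 to ZT22 were 1327 to 4097 units for Cyp4a14, 88.8 to 270.1 for Acot1 and 652 to 1403 for Vnn1. Both pools of Vnn1 thus lay inside its range over the other 5 arrays, and the ZT26 pools of Cyp4a14 and Acot2 lay above theirs. Acot1 and Acot2, and Cyp4a14 and its neighbours in the Cyp4a family, have near-identical copies, and probes may be shared between them. Acot3, a peroxisomal relative, was at 89.4 and 89.5 units, although it reached 478 at ZT10.

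The largest difference of all belonged to Cyp2b9, a cytochrome P450 more abundant in female than in male liver. It was at 169 units at ZT02 and 1132 at ZT26 (6.68-fold, 2.74), and between 70.0 units at ZT06 and 1426 at ZT18. The 5 arrays between therefore spanned more than the pair did. Cyp2b10, its relative under the xenobiotic receptor CAR, was at 439.6 and 529 units (0.27). Cyp17a1, a steroid hydroxylase, went the other way, from 733 to 386 units (-0.92). Of the 23 measured sex-biased genes under growth hormone, 17 were below 0 (30.9% of all genes) with a median of -0.07, 5 were 1.2-fold or more lower (3.39% of all) and 2 higher, and apart from Cyp2b9 and Cyp17a1 none passed 1.5-fold. Cish, an inhibitor of cytokine and growth hormone signalling, was at 146 and 259.6 units (0.83), with ZT02 the lowest of the 7 arrays. Zfp931, a zinc finger protein, was at 48.1 and 108 units (1.16), also with ZT02 the lowest. The Y-linked genes Eif2s3y, Kdm5d and Uty were at 772, 269 and 356 units at ZT02 and at 864, 318 and 373 at ZT26, and Xist was between 16.3 and 19.1 units on all 7 arrays.

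Among the mRNAs lower at ZT26, Tff3 led. This trefoil peptide of mucosal repair was at 680.5 units at ZT02, 168 at ZT26 (4.05-fold lower, -2.02) and 160.2 to 226 on the 5 arrays between, so that the ZT02 pool stood alone. Mmd2, a membrane protein of the progestin and adipoQ receptor family, had the same shape, with 705 units at ZT02, 345 at ZT26 and 209.7 to 311 otherwise (-1.03). Asns, which makes asparagine, was at 599 and 285 units (-1.07; 191 to 320.4 otherwise). In 24 of the 37 lower probe sets ZT02 was the highest of the 7 arrays and in 18 ZT26 was the lowest. In 31 of the 43 higher ones ZT26 was the highest and in 12 ZT02 was the lowest. Over all measured probe sets ZT02 was highest in 8.64% and lowest in 20.6%, and ZT26 was highest in 19.2% and lowest in 11.2%. Sets chosen by the difference of these 2 arrays hold such extremes more often by construction. The counts only describe which pool lay outside the other arrays.

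Acute phase genes, whose products the liver secretes in inflammation, leaned lower at ZT26. Of 28 measured genes 3 were 1.5-fold or more lower (0.319% of all genes) and 0 higher, 5 were 1.2-fold or more lower (3.39% of all), 24 were below 0 (30.9% of all), and the median was -0.10. Saa2, a serum amyloid A protein, was at 842 units at ZT02, 1407 at ZT06, between 172 and 416 from ZT10 to ZT22, and at 388 at ZT26 (-1.12). Saa1, whose sequence is nearly identical, was at 145, 235, 23 to 74 and 49.9 units in the same order (-1.54), and the signals of the pair may not be separable. The mean of Saa1 was 88.8 units, near the minimum of 85, which it passed only through its high values at ZT02 and ZT06. Its values from ZT10 on lay below 85 units, and the count of 3 above includes it. Lcn2, which binds bacterial siderophores, was at 881 and 497 units (-0.82). In both Saa genes ZT02 and ZT06 stood above the 5 later arrays. Orm2, an orosomucoid, and Socs3, an inhibitor of cytokine signalling, were the other members 1.2-fold or more lower (-0.42 and -0.34). Hamp2, a hepcidin gene, was the 1 member 1.2-fold or more higher (0.29), and these 3 were named after their values were seen. Among the remaining members, the fibrinogen chains Fga, Fgb and Fgg differed by -0.066, -0.079 and -0.08, haptoglobin (Hp) by -0.17 and hemopexin (Hpx) by -0.11. None of the 14 neutrophil and monocyte markers on the array had a mean above the minimum of 85 units. Their sum was 768.5 units at ZT02, 564.9 at ZT26 and 515.0 to 623.2 on the other arrays. Of the 14, 10 were lower at ZT26 and 1 was higher (Ccr2, 0.23). No share over all genes below the minimum is given here, so this count has none to stand beside. The granule gene Ngp, the farthest out of the 14, was at 127.7 and 35.2 units. The part of these cells in the acute phase difference was not tested.

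Immediate early genes leaned the same way. Of 26 measured genes 3 were 1.5-fold or more lower (0.319% of all genes) and 0 higher, 7 were 1.2-fold or more lower (3.39% of all), 18 were below 0 (30.9% of all), and the median was -0.12. Nr4a1, an orphan nuclear receptor induced within minutes of a stimulus, was at 300.2 units at ZT02 and 149 at ZT26 (-1.01), against 79 to 189 on the other arrays. Sik1, a kinase of the cAMP response, was at 772 and 498 units (-0.63; 494 to 739.5 otherwise). Dusp1, a phosphatase that switches off MAP kinases, was at 2139 and 1381 units (-0.63; 1673 to 2235 otherwise). Nr4a1 and Sik1 were highest of the 7 arrays at ZT02, and Dusp1 was lowest at ZT26. Egr1, Srf and Myc, members of the same list, were at 0.089, 0.16 and 0.18. Glucocorticoid targets and metallothioneins, among them Lcn2, Dusp1 and Per1, which other lists hold too, had a median of -0.18, the lowest of the lists of 13 or more measured genes: 2 of 19 were 1.5-fold or more lower, 6 were 1.2-fold or more lower and 14 were below 0, beside the same shares of all genes (0.319%, 3.39% and 30.9%), and 1 was 1.2-fold or more higher. These values were named after they were seen: Mt2, a metal-binding metallothionein, at -0.54, and Tsc22d3, a glucocorticoid-induced leucine zipper, at -0.35, and Pdk4, a kinase that inhibits pyruvate dehydrogenase and the 1 higher member, at 0.28.

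The cAMP response element (CRE), TGACGTCA, is bound by CREB and lies in the promoters of several immediate early genes. It was found in 3 of the 20 list members with a promoter entry (Btg2, Dusp1 and Ppp1r15a), beside 2.03% of all genes with a promoter and 3.42% of the measured ones. The 180 bases before the start of Dusp1 are chr17:26508473-26508652 (minus strand, GRCm38.p6), printed with the element in capitals.
Dusp1: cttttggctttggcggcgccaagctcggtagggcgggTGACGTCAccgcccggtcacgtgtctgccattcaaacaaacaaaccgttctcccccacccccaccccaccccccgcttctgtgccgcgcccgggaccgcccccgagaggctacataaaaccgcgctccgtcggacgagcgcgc
Of 6 motifs searched in all, the direct repeat that PPARα binds (AGGTCA and again AGGTCA with 1 base between) and a looser form with AGGNCA in its place were found in 0 and 1 of the 24 PPARα and fatty acid oxidation genes with a promoter entry, where 0.048% and 0.451% of all genes, and 0.034% and 0.376% of the measured ones, held them. The element TTCNNGAA of the heat shock factor was in 5 of 20 heat shock chaperone promoters and 5 of 25 acute phase promoters, and in 9.60% of all and 7.96% of the measured genes. The E-box CACGTG, a motif of CLOCK and BMAL1, was in 3 of 12 core clock promoters (Per1, Cry1 and Ciart), 0 of 22 interferon response promoters, 8.09% of all and 12.0% of the measured genes.

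Further single genes lower at ZT26 take part in carbohydrate, amino acid and retinoid metabolism. The lists that hold them did not move as a whole in the same way. Medians were 0.02 for glycogen, -0.04 for gluconeogenesis and 0.0 for amino acid transporters. Pck1 is also in the periportal list, described below. Ppp1r3g, a glycogen-targeting subunit of protein phosphatase 1, was at 207 and 111 units (-0.90), and Pck1, which catalyses an early step of gluconeogenesis, at 6758 and 4463 (-0.60). Slc3a1, a subunit of the cystine transporter, was at 1854 and 1028 units (-0.85), and Cyp26a1, which degrades retinoic acid, at 534 and 329.7 (-0.70). Of these, Slc3a1 had its highest value at ZT02, while Ppp1r3g, Pck1 and Cyp26a1 varied more between ZT06 and ZT22 than between the 2 pools. Cabyr, a calcium-binding protein best known in sperm, was at 193 and 99 units (-0.96) and ranged from 139 to 653 between. Mcm6, a subunit of the replication helicase, was at 128 units at ZT02 and at 79.5 at ZT26, and Ighm, the heavy chain of IgM, at 165 and 108. In both the ZT02 pool alone was high, with 75.9 to 87.4 and 88.7 to 103 units on the 5 arrays between. The mean of Mcm6 was 88.9 units, near the minimum, which it passed only through its high value at ZT02. Its place among the lower genes therefore partly follows from the choice of minimum. Besides Ighm, only 1 marker of B and plasma cells, Cd79b, was above the minimum, at 97.0 and 111.7 units.

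Small nucleolar RNAs supplied 3 of the 15 genes farthest below 0. Snord118, the U8 RNA of ribosomal RNA processing, is on the array as a pair of probe sets with the same values and was at 888 and 278 units (-1.67), again with ZT02 alone high (183 to 384 otherwise). Snora73a and Snora73b, which are close copies, were at 1915 and 887 units (-1.11) and at 2387 and 1146 (-1.06), with ZT26 the lowest of the 7 arrays in both. Olfr767, named as an odorant receptor, was at 467 and 186 units (-1.33), also lowest at ZT26.

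Core clock genes differed by little beside their own daily range. Of 15 measured ones 0 passed 1.5-fold and 1 passed 1.2-fold, where 99.3% of all genes lay within 1.5-fold and 89.6% within 1.2-fold, so these counts are near the share over all genes. Their median was -0.02, and it was -0.09 with quantile normalization and -0.08 with the intensity trend removed. Arntl was at 497 units at ZT02 and 490.4 at ZT26 (-0.019), with a low of 39.1 at ZT10. Nr1d1 was at 1472 and 1282 units (-0.20) and ranged from 148 to 3098 between. Nfil3, a repressor of D-box genes, was at 657 and 642 units (-0.035; 144 to 504 otherwise). These 3 genes thus returned to within 1.2-fold while their range over the other arrays was several-fold. The period genes did not all differ the same way: Per1 was at 113 and 82.8 units (-0.45), Per2 at 136 and 156 (0.21) and Per3 at 75.7 and 66.5 (-0.19). Among the cryptochromes, Cry1 was at 226 and 240.0 units (0.085) and Cry2 at 314 and 309.5 (-0.023). Of the remaining members, Ciart was at 0.26, Csnk1e at 0.12, Csnk1d at 0.0, Bhlhe40 at -0.019, Rora at -0.049, Nr1d2 at -0.056 and Clock at -0.11. Per1 had the largest of these differences. It is also a known target of glucocorticoids and cAMP, whose part in its difference was not tested.

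Of 17 measured genes of clock output 0 passed 1.5-fold, 3 were 1.2-fold or more higher (7.05% of all genes) and 3 lower (3.39%), and the median was 0.10, or 0.04 with quantile normalization. The PAR bZIP factors that the clock drives were split: Dbp was at 136 and 112 units (-0.29), Tef at 200.2 and 234 (0.22) and Hlf at 285 and 379 (0.41). Hlf, Loxl4 (0.39) and the vasopressin receptor Avpr1a (0.31) were the 3 higher ones, and Upp2 (-0.37), Dbp and the G protein regulator Rgs16 (-0.28) the 3 lower ones. Nampt, which makes the NAD precursor, was at 0.063, Noct (nocturnin), an NADPH phosphatase, at -0.092, Wee1, a cell cycle kinase, at 0.23 and Usp2, a deubiquitinase, at 0.21. The others were Lpin1 at 0.026, Mfsd2a at 0.10, Klf10 at -0.013, Slc45a3 at 0.085, Leo1 at 0.20 and Tspan4 at 0.21. Over the 32 genes of both lists the median absolute difference was 0.155, beside 0.091 over all genes, and 25 genes (78.1%) lay within 1.2-fold, beside 89.6% of all. These genes thus lay farther apart in the pair than the median gene did. Their median range over ZT06 to ZT22 was 1.82. Csnk1e was the 1 gene whose difference exceeded its range, and that range was 0.011.

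**Figure D4:**
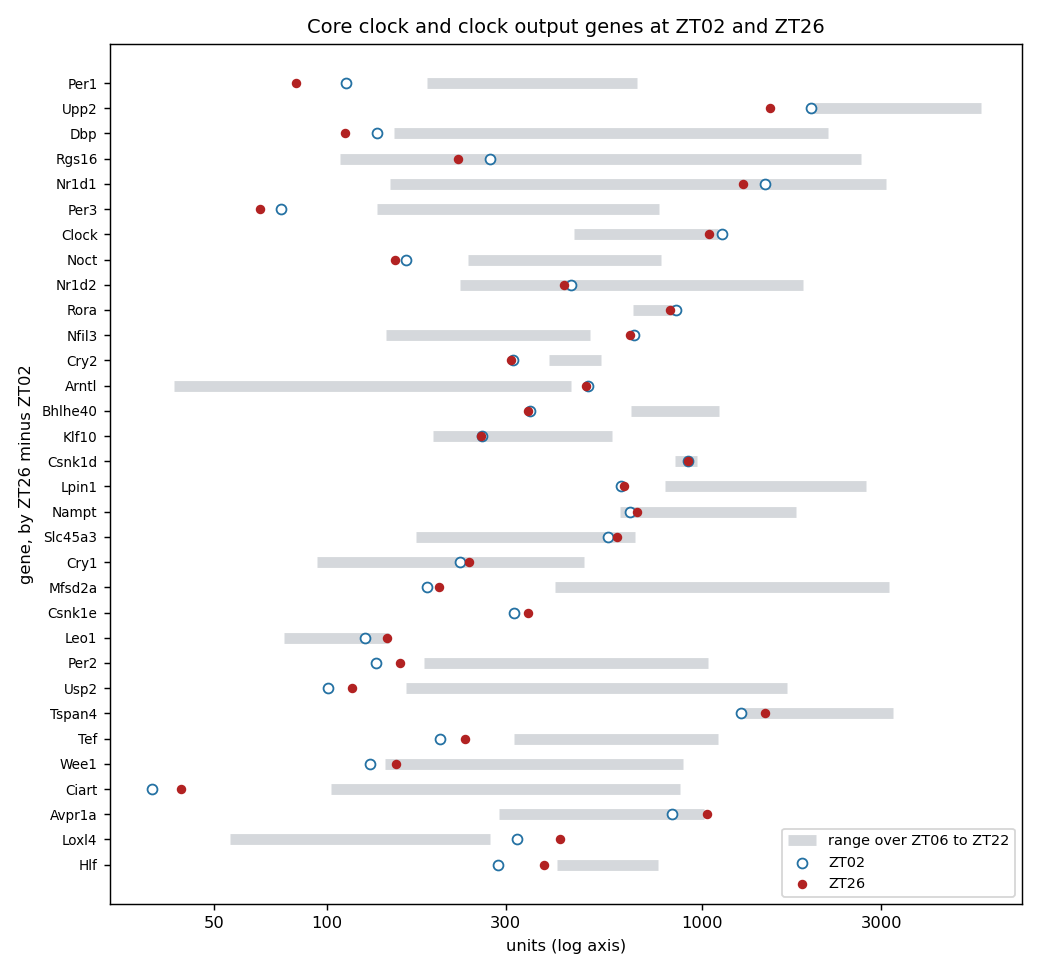
Grey bars span the lowest to the highest of the arrays ZT06 to ZT22, open circles are ZT02 and filled circles ZT26, in units on a log axis; the 32 genes are ordered by ZT26 minus ZT02. The 2 circles lie close together beside the length of the bars, with Per1 and Hlf at the ends of the order.

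The genes with the widest daily range among those within 0.1 of 0 were found by the naming rule and are given as a description. Depp1, a FOXO target, was at 1444 units at ZT02 and 1461 at ZT26 with a low of 117 at ZT14. Elovl3, which elongates very long chain fatty acids, was at 7967 and 7844 units with a low of 1447, and Rnf125, a ubiquitin ligase, was at 7411 and 6988 with a low of 1042. Erbb4, a growth factor receptor, peaked at 382 units at ZT10 and was at 141 and 143 in the pair. Clpx, the unfoldase of a mitochondrial protease, was at 2090 and 2179 units with a low of 465, and Abcg8, a sterol exporter, at 1152 and 1098 with a high of 2166. The remaining ones were Arntl, Acot3, Nr1d2 and Cry1, given above.

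Probe sets with a wider range over the other 5 arrays also differed more between the 2 pools, but by a smaller part of that range. The 6005 probe sets with a range under 0.25 over ZT06 to ZT22 had a root mean square difference of 0.140, and the 53 with a range above 2 had 0.540. The absolute difference as a share of the range had a median of 56.1% in the first class and 7.55% in the second. The classes are set by the same range that divides the difference, so part of this fall follows by construction. The range comes from single arrays and includes their error. Among the 53, 5 probe sets were 1.5-fold or more apart (9.43%), against 9 of the 6005 (0.150%). Some genes were on a steep part of their daily course at this clock hour. From ZT22 to ZT06 the largest steps up among named genes were in Nr1d1, Rgs16, Nr1d2, Dbp and Arrdc3, and the largest steps down in Cry1, Cyp2b9, Cyp26a1, Ppard and Cyp2b10. Arrdc3, an arrestin-like protein, stepped from 707 to 2756 units and was at 1535 and 1669 in the pair (0.12), and Ppard, a nuclear receptor, stepped from 970.2 to 262 and was at 795 and 868 (0.13). Over the 74 probe sets that were 1.5-fold or more higher at ZT06 than at ZT22 the median difference of the pair was -0.01 (quartiles -0.16 and 0.12), and over the 108 that were as much lower it was 0.15 (quartiles 0.03 and 0.28), beside 0.04 for the rest.

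Most function lists lay close to 0. Of the 41 function lists 27 had no gene past 1.5-fold and 33 had a median within 0.1 of 0. Over all genes 99.3% lay within 1.5-fold and 53.5% within 0.1 of 0, so neither count sets these lists apart. Outside 0.1, and not described as lists above, were tubulins (9 measured genes, median 0.17) and lipid droplets and lipolysis (0.10). The periportal zone was the other, with a median of -0.11 and 15 of 17 genes below 0 (30.9% of all genes). All 31 measured genes of complement and coagulation, 26 of iron and heme, 26 of autophagy, 23 of the antioxidant response and 36 of the proteasome stayed within 1.5-fold, as did 99.3% of all genes, with medians of -0.06, 0.02, 0.01, 0.01 and -0.01. Complement and coagulation still leaned lower at ZT26, with 25 of 31 genes below 0 (30.9% of all genes). That share is not matched for level: above 1360 units only 55.45% of probe sets were above 0. Oxidative phosphorylation had 63 measured genes, a median of 0.0 and 0 past 1.5-fold, with Ndufs4 (0.32), a subunit of complex I, the farthest out. Among 53 cytosolic ribosomal proteins Rpl12 passed 1.5-fold, at 70.5 and 106 units, near the minimum. Bile acid enzymes had Cyp7b1 at -0.42 and Cyp8b1 at 0.24, and cholesterol synthesis Mvd at 0.29 and Hsd17b7 at 0.26. Fatty acid synthesis had Acly, which makes cytosolic acetyl-CoA, at 2267 and 1785 units (-0.35). Of 28 genes of endoplasmic reticulum stress 25 were below 0 (30.9% of all genes), but 0 passed 1.5-fold and the median was -0.08, with Herpud1 at -0.28 and Derl3 at -0.27. Of 46 genes of ribosome biogenesis 39 were above 0 (63.5% of all genes), with a median of 0.09, or 0.04 with quantile normalization, and Dkc1 (0.45), a pseudouridine synthase, the farthest out. Heat shock chaperones, which are known to follow the daily body temperature, had a median of -0.03, with Hspb1 at 392 and 558 units (0.51) and a range from 259 to 1166.

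Genes used as references were within 1.2-fold in all 13 cases measured (89.6% of all genes), from -0.17 in Pgk1 to 0.049 in Ywhaz. Ppia differed by 0.0076, Eef1a1 by 0.0052, Rplp0 by -0.0061, Tbp by 0.022, Gusb by 0.038, Hprt by 0.049 and Sdha by 0.044. Actb was at -0.041, B2m at -0.087, Tfrc at -0.10 and Ppib at -0.13. Tfrc is not steady over the day: it ranged from 157 units at ZT06 to 426 at ZT18. The study gives it as an example of a rhythmic mRNA. Of the genes used as examples in the study, Alb was at 17270 and 16650 units, Gstm1 at 9030 and 9230, Bhmt at 11630 and 12000 and Nelfe at 239.6 and 232, while Spon2, a matrix protein, was at 239 and 313 (0.39).

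**Figure D5:**
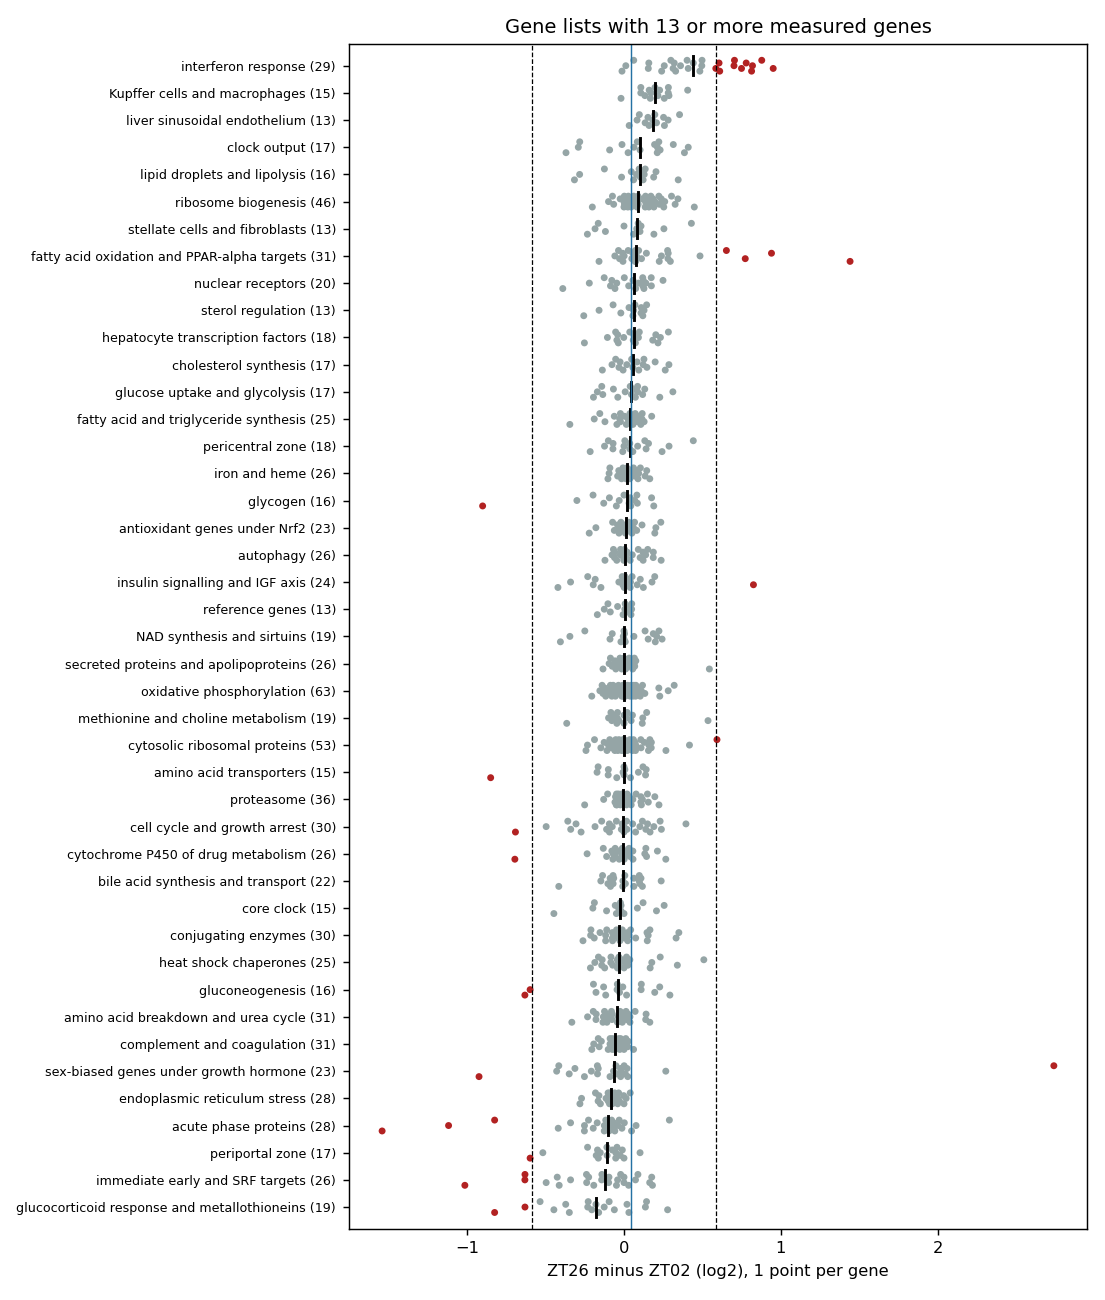
Each point is 1 gene of a list, with ZT26 minus ZT02 in log2 on the horizontal axis, and lists with 13 or more measured genes are ordered by their median (black bar; number of genes in brackets). Red points are 1.5-fold or more apart (dashed lines) and the blue line is the median of all genes, 0.04. The interferon response list lies farthest right, with a median of 0.44, and the glucocorticoid list farthest left, with -0.18.

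The pair also serves as the only replicate of a clock hour, so that variation over the day can be set against it. A moderated F-test in limma over 6 clock hours, with ZT02 and ZT26 as 2 arrays of 1 hour, called 0 of 12076 probe sets at an adjusted p under 0.05 (0.0%), and 1604 had an unadjusted p under 0.05. The lowest adjusted p was 0.369. The test had 1 residual degree of freedom and 1.81 after borrowing across probe sets. With quantile normalization 256 probe sets were called, with the intensity trend removed 214, and without the 679 probe sets of equal values 87, the last chosen after seeing the data. Its 1 residual degree of freedom is the difference between ZT02 and ZT26 itself, so a probe set far apart in the pair tends to a high p by construction, and no gene list was read from this test.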

How the data were processed

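Liver RNA from 1 pool of 5 mice per time point was hybridised to 7 Affymetrix Mouse Gene 1.0 ST arrays. The deposited values are log2 signals that the submitters' processing notes credit to RMA in Affymetrix Expression Console 1.1.2637.26569; RMA corrects background, normalizes quantiles and summarises probes by median polish, which returns repeated values. The genome build behind the authors' values is not given in the sources used here. The number of arrays limits the precision.

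Probe sets were named from GEO's platform annotation: 21789 of 35556 had 1 symbol, 1621 several and 12146 none. Those with 1 symbol and a mean above 85 units, the minimum of the study's methods, were kept, and of several probe sets of a gene the one with the highest mean. ZT26 minus ZT02 was computed in Python 3.11.15 (pandas 2.3.3) and described at 1.2-fold, 1.5-fold and 2-fold with no test. The F-test over 6 clock hours used lmFit and eBayes of limma 3.58.1 (R 4.3.3) with Benjamini-Hochberg adjustment and was tested on simulated data. It assumes that the other clock hours vary like this one.

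The pair, the 57 gene lists (1259 genes listed, 1011 measured) and the naming rule were chosen with earlier results of these data known. The rule named the 15 genes farthest from 0 each way (gene models without a common name were only counted), all core clock and clock output genes, up to 4 genes past 1.5-fold of every other list or the 2 farthest from 0, the 10 genes with the widest daily range within 0.1 of 0, the 5 steepest rises and falls from ZT22 to ZT06, and the reference, example and Y-linked genes with Xist. Other genes named were chosen after their values were seen. Alternatives were the minimum (43 or 170 units, or none), median centring, quantile normalization, removal of the intensity trend by lowess (span 0.3, statsmodels 0.14.6), 1 probe set per gene, and for the F-test a prior trend, a robust prior and leaving out each other array.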

Additional observations from a re-analysis of the deposited data

How the results depend on the processing

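The count of probe sets 1.5-fold or more higher at ZT26, 43, became 24 with a minimum of 170 units and 104 with none. The count lower, 37, became 63 with a minimum of 43 units and 83 with none. Under the other alternatives both counts stayed within 1.5 times (31 to 58 higher and 25 to 40 lower), and the root mean square difference ran from 0.162 to 0.183. The F-test called 256 probe sets with quantile normalization, 214 with the intensity trend removed and 87 without equal values (chosen after seeing the data). It called 0 under the other alternatives, leaving out 1 of the other arrays in turn included (0 to 0). The cause of these shifts was not tested. Of 519 recomputed differences of named genes, 519 moved by less than 0.122, the spread per pool, and 0 changed direction past 1.5-fold; Ighm left the 1.5-fold class with the intensity trend removed (-0.58). The median over all genes, 0.04, became 0.00 with quantile normalization, and that of the interferon response list stayed at 0.43 to 0.44. No paired analysis was possible because each time point has 1 array. With 1 array of each pool, no difference of a single gene can be separated from the error of its array, and probe sets near 85 units carry the widest spread.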

Other observations

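Probe sets of small RNA genes and odorant receptor symbols had lower median differences than those of protein-coding genes. Over 11671 protein-coding probe sets the median difference was 0.05 and the root mean square 0.168. Over 65 microRNA probe sets the median was -0.16 with 48 below 0, 4 lower and 1 higher by 1.5-fold, and over 41 small nucleolar RNA probe sets it was -0.07 with 5 lower (the Snord118 pair among them) and 0 higher by 1.5-fold and a root mean square of 0.487. Mir192, a microRNA abundant in liver, was at 86.8 units at ZT02 and 140.4 at ZT26, while Mir194-1 was at 155.2 and 99.7; both were named after their values were seen, and the array probes the precursor's locus and not the mature arm. Of 16 probe sets with an odorant receptor symbol 13 were below 0, with a median of -0.28.

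Probe sets left out of the comparison for their annotation also had a mean above 85 units in many cases. Of 4774 with no symbol, 206 were 1.5-fold or more higher at ZT26 and 142 lower, with a root mean square of 0.312, and of 833 with several symbols 3 were higher and 3 lower, with 0.164.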
